A study of Mus musculus with 12 samples.

Results

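The cell cycle and DNA replication genes are a chosen list of 44 genes whose products copy DNA in S phase or separate the chromosomes in mitosis. A probe of the array was named for 41 of them, 1 probe each, and 40 were detected on all 3 arrays of at least 1 cell fraction: 17 S phase genes and 23 mitosis genes, out of 16942 genes tested in the series. Cdca8, part of the chromosomal passenger complex, was detected on 1 array and was not tested, and Ccne2, Ccnb1 and Foxm1 had no named probe and were not analysed here. Every gene on the list is accounted for in these counts.

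The study hybridised RNA from 4 T cell fractions of mouse Peyer's patches, the lymphoid follicles of the small intestine, to 3D-Gene mouse oligo chips from Toray, 12 in all and 3 a fraction. DN cells were TCRβ+ and γδTCR- without CD4 or CD8β, CD4 cells were TCRβ+ and γδTCR- with CD4 (the labels print no sign for their CD8β), CD8 cells were TCRβ+ with CD8β and without CD4, and γδ cells were γδTCR+ and TCRβ-. All came from C57BL/6 mice aged 10 weeks, male and female, in pools of 3 to 5 animals, with a stated purity above 98% after sorting. RNA was collected 3 times, but the labels do not say which arrays share a pool or a day, so p-values measure the spread between these arrays, part of which may be technical. The labels name no allele or agent in any group.

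A resting T cell holds little of the replication and mitosis proteins. On entry into the cycle, E2F factors switch on the genes for origin licensing, the MCM helicase, the sliding clamp and nucleotide supply. Later, in G2, the genes for mitotic cyclins, kinases, spindle and kinetochore proteins follow, many through paired CCAAT and CHR promoter elements. Peyer's patches are a site of constant immune activation in which germinal centre B cells and some T cells divide. In bulk RNA, fewer dividing cells and less of these transcripts per dividing cell cannot be told apart.

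The 2 gene classes differ in the letters of their promoters. RefSeq windows of 300 bases on GRCm38.p6, from 250 bases before to 50 after the start, were found for 35 of the 44 listed genes (14 S phase, 21 mitosis). Of these, 4 are printed: a helicase gene, the clamp gene, a centromere gene and a checkpoint gene. They were picked for the highest mean signal in their role groups among genes with a window, not for their letters. Capitals mark the E2F-like letters TTTCCCGC, TTTGGCGC or TTTCGCGC, the CHR letters TTTGAA or TTCGAA, and CCAAT, on either strand. An E2F-like match and a CCAAT overlap by 1 base in the Mcm7 window (chr5:138171834-138172133, minus strand). The other windows are chr2:132253131-132253430 (Pcna, minus strand), chr5:30666636-30666935 (Cenpa, plus strand) and chr6:66534971-66535270 (Mad2l1, plus strand), the last without any of the letters.
Mcm7: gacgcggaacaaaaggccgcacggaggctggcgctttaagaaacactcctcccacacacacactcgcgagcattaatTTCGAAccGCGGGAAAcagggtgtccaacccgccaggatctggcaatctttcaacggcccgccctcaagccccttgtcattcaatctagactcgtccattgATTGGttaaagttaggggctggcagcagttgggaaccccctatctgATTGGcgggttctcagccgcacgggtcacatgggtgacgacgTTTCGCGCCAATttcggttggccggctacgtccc
Pcna: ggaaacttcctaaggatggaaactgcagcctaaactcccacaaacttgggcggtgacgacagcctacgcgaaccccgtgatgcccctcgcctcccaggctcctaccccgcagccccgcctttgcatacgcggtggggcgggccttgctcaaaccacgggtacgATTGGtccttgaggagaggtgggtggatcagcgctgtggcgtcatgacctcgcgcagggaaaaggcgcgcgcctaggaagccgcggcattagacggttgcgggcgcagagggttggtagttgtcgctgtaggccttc
Cenpa: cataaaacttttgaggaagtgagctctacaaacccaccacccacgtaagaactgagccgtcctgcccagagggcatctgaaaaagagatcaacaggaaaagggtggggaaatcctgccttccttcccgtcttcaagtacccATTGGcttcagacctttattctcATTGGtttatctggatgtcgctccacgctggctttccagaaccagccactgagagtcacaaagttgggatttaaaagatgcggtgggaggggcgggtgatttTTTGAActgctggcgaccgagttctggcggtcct
Mad2l1: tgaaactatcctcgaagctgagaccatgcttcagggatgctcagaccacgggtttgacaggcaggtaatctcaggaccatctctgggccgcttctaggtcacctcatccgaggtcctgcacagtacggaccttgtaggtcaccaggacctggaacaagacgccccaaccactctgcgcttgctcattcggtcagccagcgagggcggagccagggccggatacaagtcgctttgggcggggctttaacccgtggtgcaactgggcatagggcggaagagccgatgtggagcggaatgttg

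E2F-like letters were found in 5 of 14 S phase windows (35.7%), among them those of Mcm3, Mcm5, Mcm6 and Mcm7, in 0 of 21 mitosis windows, and in 1.91% of the windows of all 27025 genes. CHR letters stood in 14 of 21 mitosis windows (66.7%) and 3 of 14 S phase windows, against 19.4% of all genes. CCAAT was held by 17 of 21 mitosis and 9 of 14 S phase windows, against 37.9% of all. CHR and CCAAT stood together in 14 of 21 mitosis windows and 3 of 14 S phase windows, against 7.7% of all genes. These are matches of letters, not sites shown to be bound.

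Signals are given as log2 of the spot intensity after background correction and quantile normalisation, and a difference of 1 is a doubling. The blank spots averaged 58.6 to 62.2 per array and the median spot 70.7 to 77.9 before correction, so many genes lie near the background and their differences on this scale are narrowed. Replicate 1 of every fraction was hybridised on another array series than replicates 2 and 3, as the array names show. The gene of CD8β, Cd8b1, went against 2 labels: it read 8.57 in the library labelled CD8 1, against 13.80 and 13.62 in CD8 2 and 3, and it read 13.91 in the library labelled γδ 1, against 8.29 and 8.14 in γδ 2 and 3. It was 6.26 to 6.29 in the 3 DN arrays, and Cd4 was at 8.76 to 9.97 in the CD4 arrays alone. Results are therefore given both with these libraries and after leaving them out.

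Taken as labelled and without a block, the fractions gave no call among the 40 genes. With limma's adjusted p under 0.05 as the threshold, 0 of 40 were called between DN and CD4 (2.28% of all genes were), between DN and CD8 (0.0177% of all genes), between DN and γδ (0.0118%), between CD4 and CD8 (1.07%), between CD4 and γδ (1.15%) and between CD8 and γδ (0% of all genes), and 0 of 40 in the F test over the 4 fractions (1.17%). At an unadjusted p under 0.05 the same comparisons held 1, 3, 0, 2, 1 and 1 of the 40 genes, and the F test 1. The shares of all genes were 13.9%, 8.75%, 4.43%, 7.31%, 9.55% and 1.94%, and 10.4% in the F test. With the array series as a block, Ube2c was called between DN and CD4 (-0.25, adjusted p = 0.0342 in limma, with 8.45% of all genes called), and Melk (0.42), Mcm6 (0.48) and Kif20a (0.30) between CD4 and γδ (4.31% of all genes). With the replicate number as a block, Mcm6 alone was called, between CD4 and γδ (2.94% of all genes). The DN minus CD8 differences of the 23 mitosis genes were positive for 20, with a median of 0.15, and the CD4 minus CD8 differences for 22, with a median of 0.18, while the medians over all genes tested were -0.01 and -0.0030.

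The proliferation marker Mki67, whose protein coats mitotic chromosomes, shows the scale of these differences. It read 6.47, 6.15 and 6.19 in DN 1, 2 and 3, 6.32, 6.34 and 6.26 in CD4, 6.25, 6.04 and 6.07 in CD8, and 6.13, 6.16 and 6.18 in γδ. The CD8 arrays 2 and 3 were the lowest of the 12, and CD8 1 lay among the DN and CD4 arrays. The means were 6.27 ± 0.17 in DN, 6.31 ± 0.04 in CD4, 6.12 ± 0.11 in CD8 and 6.16 ± 0.02 in γδ (SD, n = 3 each), and the CD4 minus CD8 difference of 0.18 (SE 0.08) had an adjusted p of 0.71 in limma.

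Pcna, the sliding clamp that holds DNA polymerase on its template, was called in no comparison between fractions, as labelled or in the blocked fit described below. It read 10.28, 9.77 and 9.70 in DN, 9.91, 9.61 and 9.97 in CD4, 10.25, 9.63 and 9.88 in CD8, and 10.46, 9.80 and 9.77 in γδ. The groups overlapped throughout.

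**Figure D1:**
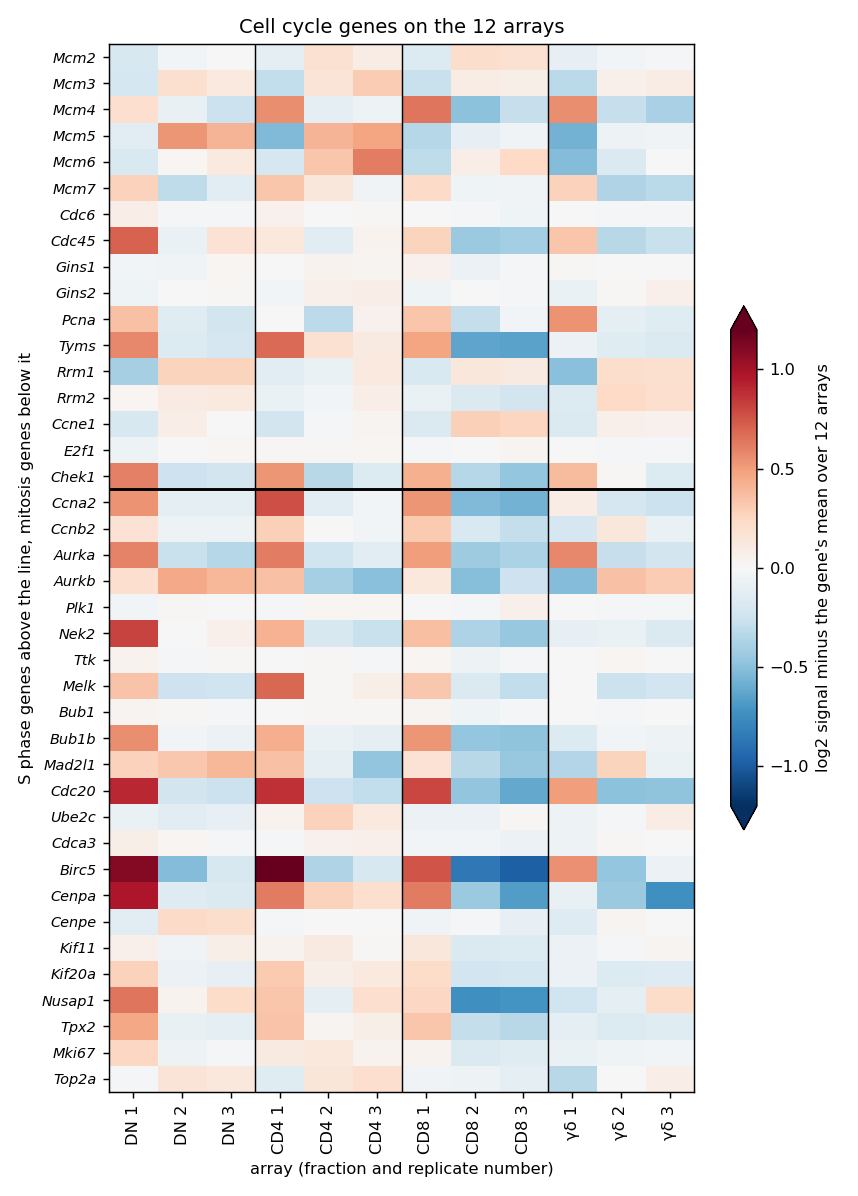
Log2 signal of the 40 cell cycle genes (rows, S phase genes above the black line and mitosis genes below it) on the 12 arrays (columns), as the difference from each gene's mean over the 12 arrays. CD8 2 and 3 are blue in most mitosis rows. Replicate 1 of every fraction is red for Birc5, Cdc20 and Aurka, and replicate 1 of DN, CD4 and CD8 for Ccna2, where γδ 1 is near the mean.

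Within replicates 2 and 3, which share 1 array series, the mitosis genes were lowest in CD8. Both CD8 arrays lay below the other 6 arrays for 16 of 23 mitosis genes (69.6%) and 4 of 17 S phase genes (23.5%), against 11.6% of all genes tested. The mean of CD8 2 and 3 was the lowest of the 4 fractions for 18 of 23 mitosis genes and 9 of 17 S phase genes, against 22.8% of all genes. No mitosis gene had both CD8 arrays above the other 6, which 16% of all genes did. In the converse direction, CD4 2 and 3 stood above the other 6 arrays for 7 of 23 mitosis genes and 4 of 17 S phase genes, against 14% of all genes.

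In replicate 1 the lowest array was another one. The library labelled γδ 1, whose Cd8b1 signal was 13.91, was the lowest of the 4 arrays for 19 of 23 mitosis genes, against 25.5% of all genes, and the library labelled CD8 1 was the lowest for 1, against 24.5% of all genes. For S phase genes γδ 1 was lowest for 8 of 17. Averaged over the 23 mitosis genes, the log2 signal was 7.22, 6.84 and 6.86 in DN 1, 2 and 3, 7.20, 6.84 and 6.83 in CD4, 7.13, 6.58 and 6.55 in CD8, and 6.83, 6.78 and 6.78 in γδ. The lowest average was thus that of γδ 1 among the 4 arrays of replicate 1, and those of CD8 2 and 3 among the 8 others.

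**Figure D2:**
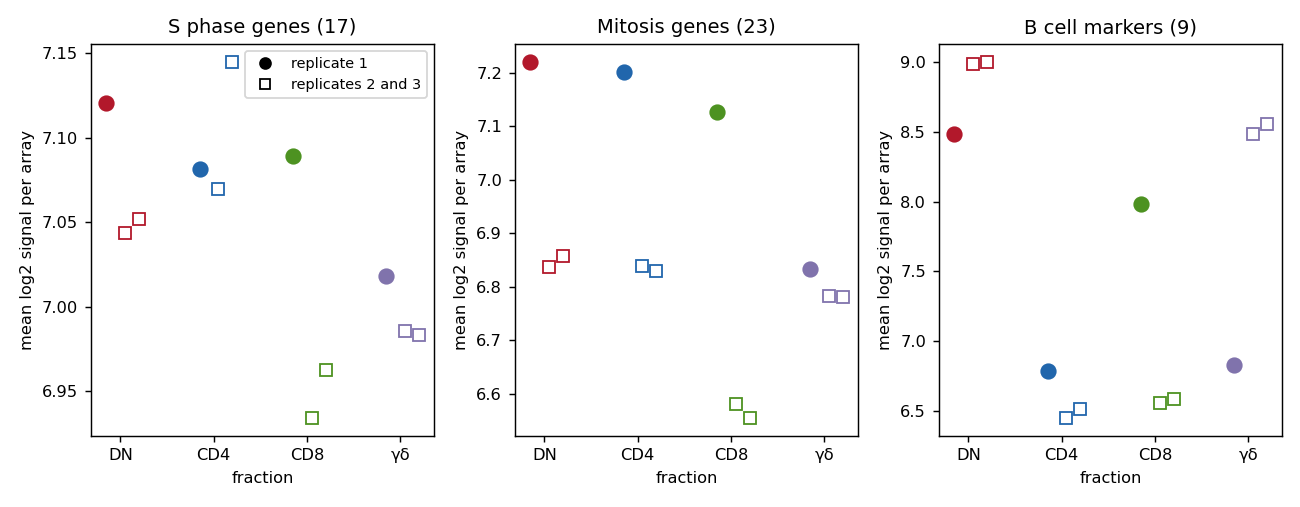
Mean log2 signal per array of the 17 S phase genes, the 23 mitosis genes and 9 B cell markers (panels, each with its own axis that does not start at 0), by fraction, with filled circles for replicate 1 and open squares for replicates 2 and 3. The mitosis average of CD8 2 and 3, at 6.58 and 6.55, lies below every other array, while their B cell average is near that of CD4 2 and 3.

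When the array series was blocked and both doubtful libraries were left out, mitosis genes and some S phase genes were higher in DN than in CD8 cells. Of the 40 genes, 16 were called between DN and CD8 (26.5% of all genes were), 14 higher and 2 lower in DN. Among them 10 of 23 mitosis genes were higher and 0 lower, against 12.4% of all genes higher and 14.1% lower. Between CD4 and CD8, 15 of 40 were called (16.7% of all genes), 14 higher and 1 lower in CD4, of which 11 were mitosis genes, all higher, against 8.79% of all genes higher and 7.94% lower. The F test over the 4 fractions called 17 of 40, against 34.8% of all genes. The median difference of the 23 mitosis genes was 0.22 in both comparisons, beside -0.01 over all genes tested in each, and that of the 17 S phase genes 0.04 for DN minus CD8 and 0.08 for CD4 minus CD8. Both comparisons rest on the same CD8 arrays, 2 and 3 only. Without the block, which leaves the array series unbalanced between the fractions, the 6 comparisons (DN with CD4, CD8 and γδ, CD4 with CD8 and γδ, CD8 with γδ) called 0, 3, 0, 1, 1 and 1 of the 40 genes, against 10.6%, 12.9%, 0.968%, 5.39%, 8.99% and 7.37% of all genes. With the local background of each spot subtracted as well as the block, 0 of 40 were called in either comparison, and 10 (0.059%) and 6 (0.0354%) of all genes. On the deposited value table, in the same fit, 14 of the 16 calls between DN and CD8 were kept, Cdc20 and Mcm2 being lost, and 12 of the 15 between CD4 and CD8, Cdc20, Mcm5 and Aurka being lost. For 14 of the called genes in each comparison the difference was over 1.5 times as large there, and up to 9.63 and 8.73 times as large, so the sizes below hold for the background-corrected scale. With the local background subtracted the sign also turned for Cdc20, Top2a and Ccne1 in DN minus CD8 and for Birc5, Nusap1, Aurka and Ccne1 in CD4 minus CD8.

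The 4 spindle genes were all called in both comparisons. Nusap1, which bundles spindle microtubules, read 7.55, 6.95 and 7.13 in DN, 7.25, 6.79 and 7.11 in CD4, 7.16, 6.18 and 6.20 in CD8, and 6.67, 6.81 and 7.13 in γδ. CD8 2 and 3 were the lowest of the 12 arrays by a clear step. The difference was 0.89 for DN minus CD8 (SE 0.14, a 1.86-fold change, adjusted p = 0.0039 in limma) and 0.73 for CD4 minus CD8 (SE 0.14, 1.66-fold, adjusted p = 0.0148). On the deposited value table, which lies closer to 0 at the dim end, the same differences were 2.10 and 1.86, more than 1.5 times as large, and with the local background subtracted the second was -0.0028.

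Kif11, the kinesin motor that pushes the spindle poles apart, read 6.05, 5.94 and 6.06 in DN, 6.03, 6.09 and 6.00 in CD4, 6.13, 5.81 and 5.82 in CD8, and 5.92, 5.97 and 6.02 in γδ. Again CD8 2 and 3 lay under the other 10 arrays, while CD8 1 was the highest. DN exceeded CD8 by 0.20 (SE 0.05, adjusted p = 0.0223) and CD4 exceeded CD8 by 0.22 (SE 0.05, adjusted p = 0.0221). On the deposited value table the 2 differences of Kif11 were 1.88 and 1.91. Its intensity there was 3.5 and 5 in CD8 2 and 3, and 11.4 to 22.2 in the other arrays. All lie below the column medians of 24.9 to 25, so these differences rest on dim signals. Kif20a, a kinesin of cytokinesis, differed by 0.16 and 0.29, and Tpx2, which activates Aurora A on the spindle, by 0.26 and 0.32.

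Among the 8 mitotic kinases, 2 were called higher in DN and 3 in CD4 than in CD8. Bub1b, a spindle checkpoint kinase homologue, had the smallest adjusted p of the 40 genes for DN minus CD8 (0.43, SE 0.03, 1.35-fold, adjusted p = 0.00015) and was also higher in CD4 (0.36, SE 0.03). It read 6.59 and 6.55 in DN 2 and 3, 6.54 and 6.50 in CD4, 6.16 and 6.14 in CD8, and 6.59 and 6.56 in γδ. The CD8 pair was thus separated from the other 6 arrays of replicates 2 and 3, which lay between 6.50 and 6.59. Replicate 1 did not show this order. On the deposited value table Bub1b had an intensity of 114.1 in DN 1, 106.4 in CD4 1, 115.3 in CD8 1 and 44.7 in γδ 1. The library labelled CD8 1, left out of this fit with γδ 1, was thus the highest of that replicate and γδ 1 the lowest. Nek2, a centrosome kinase, was higher in DN than in CD8 by 0.46, and Melk by 0.28 and Aurka by 0.20 in CD4 than in CD8. Aurkb, the kinase of the passenger complex, read 9.79, 10.05 and 9.99 in DN, 9.94, 9.19 and 9.09 in CD4, 9.72, 9.07 and 9.34 in CD8, and 9.07, 9.94 and 9.89 in γδ, and passed the threshold in neither comparison. In replicates 2 and 3 its signal was therefore high in DN and γδ and low in CD4 and CD8.

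The cyclin Ccna2, which drives S phase and entry into mitosis, read 7.22, 6.57 and 6.58 in DN, 7.45, 6.56 and 6.65 in CD4, 7.22, 6.15 and 6.12 in CD8, and 6.77, 6.49 and 6.43 in γδ. CD8 2 and 3 did not overlap the other arrays. DN exceeded CD8 by 0.41 (SE 0.06, adjusted p = 0.0024) and CD4 exceeded CD8 by 0.50 (SE 0.06, adjusted p = 0.0018). Ccnb2, a B-type cyclin, showed differences of 0.17 and 0.23 that were not called.

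Cdc20, the activator of the anaphase promoting complex, read 8.88, 7.75 and 7.71 in DN, 8.84, 7.72 and 7.67 in CD4, 8.77, 7.49 and 7.35 in CD8, and 8.47, 7.47 and 7.49 in γδ. Here CD8 and γδ were both low within replicates 2 and 3. It was higher in DN than in CD8 by 0.31 (SE 0.04), higher in CD4 than in CD8 by 0.28 (SE 0.04), and it was 1 of 2 genes called between DN and γδ (0.25, SE 0.04, adjusted p = 0.0254). Mad2l1, the checkpoint protein that holds Cdc20 back, read 8.78, 8.84 and 8.91 in DN, 8.87, 8.39 and 8.04 in CD4, 8.69, 8.18 and 8.06 in CD8, and 8.16, 8.78 and 8.43 in γδ. Its replicates 2 and 3 of CD4 and of γδ lay farther apart than those of DN, and it was not called.

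Birc5, or survivin, a passenger complex subunit, read 9.33, 7.70 and 8.03 in DN, 9.45, 7.86 and 8.02 in CD4, 8.98, 7.36 and 7.24 in CD8, and 8.77, 7.75 and 8.15 in γδ. The CD8 arrays 2 and 3 were the lowest of the 12. The differences were 0.55 for DN minus CD8 (SE 0.15, adjusted p = 0.0332) and 0.65 for CD4 minus CD8 (SE 0.15, adjusted p = 0.0282). Cenpa, the histone that marks centromeres, read 10.41, 9.29 and 9.26 in DN, 10.07, 9.72 and 9.64 in CD4, 10.06, 9.0 and 8.77 in CD8, and 9.35, 8.99 and 8.70 in γδ. It was called between CD4 and γδ alone (0.71, SE 0.19, adjusted p = 0.0385). Top2a, which untangles sister chromatids, read 6.18, 6.35 and 6.32 in DN, 6.05, 6.34 and 6.40 in CD4, 6.15, 6.13 and 6.08 in CD8, and 5.87, 6.19 and 6.28 in γδ, and was higher in DN and in CD4 than in CD8 by 0.26 and 0.23.

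The S phase genes were less uniform. Tyms, which makes thymidylate, read 7.98, 7.23 and 7.19 in DN, 8.07, 7.58 and 7.51 in CD4, 7.87, 6.77 and 6.76 in CD8, and 7.33, 7.26 and 7.23 in γδ, and it was higher in DN than in CD8 by 0.49 (SE 0.06, adjusted p = 0.0013) and in CD4 than in CD8 by 0.74 (SE 0.06, adjusted p = 0.0005). Rrm2, the regulated subunit of ribonucleotide reductase, read 6.16, 6.23 and 6.25 in DN, 6.05, 6.10 and 6.21 in CD4, 6.06, 5.96 and 5.91 in CD8, and 5.97, 6.37 and 6.34 in γδ. It was lowest in CD8 and highest in γδ within replicates 2 and 3, with calls for DN minus CD8 (0.31, SE 0.04), CD4 minus CD8 (0.22, SE 0.04), CD4 minus γδ (-0.20, SE 0.04) and CD8 minus γδ (-0.42, SE 0.04, adjusted p = 0.0007). Its partner subunit Rrm1 read 6.36, 7.02 and 7.03 in DN, 6.63, 6.68 and 6.87 in CD4, 6.58, 6.89 and 6.87 in CD8, and 6.26, 6.97 and 6.95 in γδ, and was called in none.

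The MCM genes, whose products form a hexameric helicase, did not all move the same way. Mcm5 read 6.75, 7.42 and 7.29 in DN, 6.35, 7.29 and 7.36 in CD4, 6.54, 6.79 and 6.84 in CD8, and 6.31, 6.82 and 6.84 in γδ, and it was higher in DN than in CD8 by 0.60 (SE 0.09, adjusted p = 0.0033) and than in γδ by 0.59 (SE 0.09, adjusted p = 0.0151). Mcm2 read 6.13, 6.29 and 6.31 in DN, 6.21, 6.50 and 6.41 in CD4, 6.15, 6.53 and 6.50 in CD8, and 6.22, 6.28 and 6.30 in γδ, and was lower in DN than in CD8 by 0.20 (difference -0.20, SE 0.04, adjusted p = 0.0063). Mcm5 and Mcm2 thus went opposite ways in that comparison. Mcm3, Mcm4, Mcm6 and Mcm7 were not called there. Between CD4 and γδ, 4 of the 6 MCM genes were called, all higher in CD4, against 12% of all genes higher, with differences of 0.15 (Mcm2), 0.35 (Mcm7), 0.43 (Mcm5) and 0.49 (Mcm6). On the value table Mcm2 and Mcm7 lost the call.

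Ccne1, the cyclin E gene that starts replication, read 5.84, 6.11 and 6.03 in DN, 5.81, 6.01 and 6.06 in CD4, 5.86, 6.32 and 6.29 in CD8, and 5.86, 6.10 and 6.08 in γδ, and CD8 2 and 3 were its highest arrays. It was lower in DN than in CD8 (-0.24, SE 0.03, adjusted p = 0.0022) and lower in CD4 than in CD8 (-0.27, SE 0.03, adjusted p = 0.0025). Cdc45, which activates the helicase at origins, read 7.41, 6.62 and 6.87 in DN, 6.83, 6.57 and 6.74 in CD4, 6.97, 6.25 and 6.29 in CD8, and 7.03, 6.37 and 6.43 in γδ, and was higher in DN than in CD8 by 0.56 (SE 0.13, adjusted p = 0.0237). Cdc6, Gins1, Gins2 and E2f1 among the S phase genes, like Plk1, Ttk, Bub1 and Cdca3 among the mitosis genes, kept within 5.72 to 6.07 on all 12 arrays, near the floor of the scale, and none was called between fractions on this scale. On the deposited value table Gins2 was called in 4 comparisons, with differences of -0.55 for DN minus CD4, 0.75 for DN minus CD8, 1.30 for CD4 minus CD8 and -0.87 for CD8 minus γδ, and Bub1 (1.04) and Cdca3 (1.09) were called for DN minus CD8. In fits on that table a probe that was not detected took the lowest value of its array. Bub1 was not detected in CD8 2 and read 1.7 in CD8 3, so its call rests partly on such a value. The detected intensities of Gins2 were 2.4 to 6.5, and Cdca3 read 4.9 and 3.9 in CD8 2 and 3. Ube2c, which charges ubiquitin for the anaphase promoting complex, averaged 7.99 ± 0.03 in DN, 8.23 ± 0.12 in CD4, 8.04 ± 0.05 in CD8 and 8.09 ± 0.08 in γδ (SD, n = 3 each).

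**Figure D3:**
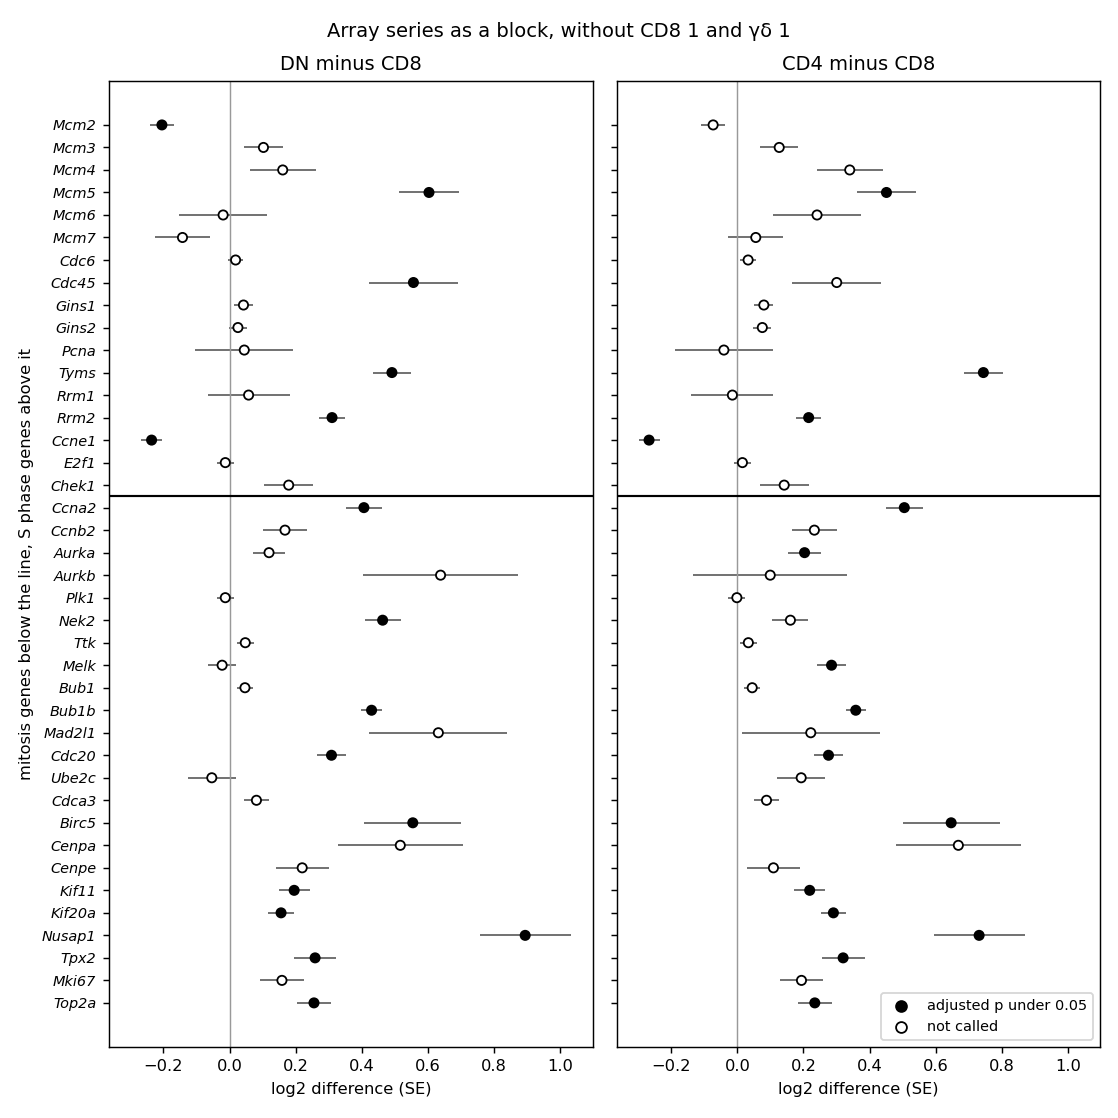
Difference from CD8 of the 40 cell cycle genes (rows) in log2 units with its standard error, for DN (left panel) and CD4 (right panel), from the fit that blocks array series and leaves out CD8 1 and γδ 1. Filled points have an adjusted p under 0.05: most lie to the right, and Mcm2 (left panel only) and Ccne1 lie to the left.

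The remaining comparisons were fitted in the same way. Between DN and CD4, 6 of 40 genes were called (25.4% of all genes), Nek2 higher in DN by 0.30 and Melk, Tyms, Ube2c, Kif20a and Mcm2 lower in DN, with differences from -0.31 to -0.13, against 11.3% of all genes higher and 14% lower. Of these 6, Nek2 and Melk kept the call on the value table. Between DN and γδ 2 of 40 were called (6.26% of all genes), Cdc20 and Mcm5, and both lost the call on the value table. Between CD4 and γδ 10 of 40 were called, 9 higher and 1 lower in CD4, with 22% of all genes called, 12% higher and 10% lower, and 5 of the 10 kept the call on the value table. Between CD8 and γδ 12 of 40 were called (19.9% of all genes), 2 higher in CD8 (Mcm2 and Ccne1) and 10 lower, 7 of them mitosis genes, against 10.6% of all genes higher and 9.3% lower.

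Markers of other cell types also differed between the fractions. The mean log2 signal of 9 B cell genes was 8.48, 8.98 and 9.0 in DN 1, 2 and 3, 6.78, 6.45 and 6.51 in CD4, 7.98, 6.55 and 6.59 in CD8, and 6.83, 8.48 and 8.56 in γδ. With the block and without the 2 libraries, 9 of these 9 had a higher signal in DN than in CD4, 8 of 9 higher in DN than in CD8, and 0 of 9 were called between CD4 and CD8. In that fit 11.3% of all genes were called higher in DN than in CD4, and 12.4% higher in DN than in CD8. For CD4 against CD8, 8.79% of all genes were called higher and 7.94% lower in CD4. The 6 plasma cell genes averaged 7.12, 7.15 and 7.20 in DN, 6.55, 6.83 and 6.87 in CD4, 6.90, 6.31 and 6.35 in CD8, and 6.36, 7.14 and 7.22 in γδ, and 4 of 6 were higher in DN than in CD8 and 2 of 6, Xbp1 and Irf4, higher in CD4 than in CD8. Both are also expressed by activated T cells. The part of RNA from B cells, plasma cells or any other cell type in the differences of the cell cycle genes was not tested. A list of 8 germinal centre B cell genes stayed between 6.05 and 6.20 on average in the 12 arrays, but its single genes differed. Over replicates 2 and 3 alone, their differences ran from -0.55 to 0.26 for DN minus CD4 and from -0.16 to 0.24 for DN minus CD8. The T cell list of 8 genes averaged 8.85 to 9.22 in DN, 9.44 to 10.15 in CD4, 9.04 to 9.81 in CD8 and 9.18 to 9.37 in γδ, while the epithelial list of 9 lay between 6.39 and 6.83 and the myeloid list of 6 between 6.41 and 7.07. Over replicates 2 and 3 alone, DN minus CD4 ran from -0.76 to 0.81 in the epithelial list and from -0.16 to 2.76 in the myeloid list. DN minus CD8 ran from -0.15 to 0.76 and from -0.41 to 2.57.

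The wider lists of cell cycle genes gave 0 calls as labelled without a block. With all 12 arrays and the array series blocked, the mitotic machinery list had 1 gene higher and 5 lower in DN than in CD4, 4 higher in CD4 than in CD8 and 4 higher in CD4 than in γδ. Of all 16942 genes, 646 were higher and 785 lower in DN than in CD4. In CD4, 385 were higher and 151 lower than in CD8, and 504 higher and 226 lower than in γδ. Of the other lists, 2 genes were called between DN and CD4, Pold3 (0.32) and Cdc25a (-0.18), and 2 between CD4 and γδ, Cdc25a (0.22) and Tob1 (-0.39). With the block and without the 2 libraries, 15 of 56 further mitotic machinery genes were higher in CD4 than in CD8 and 1 lower, with a median difference of 0.09. Cdk1, the kinase that drives mitosis, was higher by 0.68 and Racgap1, of cytokinesis, lower (-0.52). Of 41 replication machinery genes, 9 were higher in CD4 than in CD8 and 4 lower, led by Lig1 (0.91), which joins Okazaki fragments, and Mcm10 (0.40), and by Pole2 (-0.40) and Orc3 (-0.35) in the other direction. Between DN and CD8, 14 mitotic machinery genes were higher in DN and 3 lower, and 15 replication machinery genes were higher and 4 lower, among them the clamp loader genes Rfc2 (0.58) and Rfc3 (0.62). Of 12 genes for G1 cyclins, kinases and activating factors, 0 were higher in DN than in CD8 and 4 lower, including Cdk6 (-0.46), Cdc25a (-0.20) and Myc (-0.70), and of 19 inhibitor and quiescence genes 3 were higher and 3 lower. In that fit 12.4% of all genes were higher and 14.1% lower in DN than in CD8. Between CD4 and CD8, 8.79% of all genes were higher and 7.94% lower in CD4.

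The signals of the cell cycle genes also differed between array series. Replicate 1 minus replicates 2 and 3, with the fractions in the fit, was called for 25 of 40 genes, 17 higher and 8 lower in replicate 1, against 40.7% of all genes called, 21.9% higher and 18.9% lower. Of the 23 mitosis genes 10 were higher and 1, Top2a, was lower, with a median of 0.21, and of the 17 S phase genes 7 were higher and 7 lower, with a median of -0.02, beside 0.01 over all genes. After leaving out CD8 1 and γδ 1, 26 were called (38.5% of all genes), 18 higher and 8 lower, 12 mitosis genes higher and 1 lower. Array series, collection and hybridisation cannot be told apart here. When the local background was subtracted, 1 of 40 genes, Mcm5, was called and 134 (0.791%) of all genes. On the deposited value table, where the median over all genes moved to 0.29, 20 of the 40 were higher and 8 lower, beside 34.7% and 13.1% of all genes.

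The members of the MCM hexamer split. Mcm4 and Mcm7 were higher in replicate 1, and Mcm2, Mcm3, Mcm5 and Mcm6 lower. Mcm4 read 10.53 in DN 1, 10.89 in CD4 1, 10.97 in CD8 1 and 10.89 in γδ 1, against 9.84 to 10.28 in the 8 arrays of replicates 2 and 3, and its shift was 0.73 (SE 0.10, 1.66-fold, adjusted p = 0.00052 in limma). Mcm5 shifted by -0.59 (SE 0.09, adjusted p = 0.0011), Mcm6, at 6.92, 6.90, 6.80 and 6.59 in DN 1, CD4 1, CD8 1 and γδ 1 and at 6.93 to 7.72 in the others, by -0.46 (SE 0.08). Mcm3 was 6.12, 6.05, 6.07 and 6.02 in the 4 arrays of replicate 1, against 6.40 to 6.64 in the others, and shifted by -0.41 (SE 0.04, adjusted p = 6.7e-05). The array series did not overlap for any of the 6 MCM genes, and they did not for 14 of the 40 genes in all (35%), against 23.7% of all genes tested. Each value is from 1 probe, so a shift of a gene and a shift of its probe cannot be told apart.

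The largest upward shifts were in mitosis genes. Birc5 shifted by 1.37 (SE 0.14, 2.58-fold, adjusted p = 0.00014), with 8.77 to 9.45 in replicate 1, against 7.24 to 8.15 in replicates 2 and 3. Cdc20 shifted by 1.16 (SE 0.05, 2.23-fold, adjusted p = 2.6e-06) and Aurka, the kinase of the spindle poles, by 0.86 (SE 0.03, adjusted p = 1.4e-06), with 7.28 to 7.39 in replicate 1, against 6.35 to 6.65. Neither gene had overlapping array series. Cenpa shifted by 0.80 (SE 0.14), Chek1, the replication checkpoint kinase, by 0.73 (SE 0.07, with 7.12 to 7.35 in replicate 1, against 6.28 to 6.75), Ccna2 by 0.72 (SE 0.10) and Cdc45 by 0.54 (SE 0.09). Among the genes that shifted down besides the MCM genes were Rrm1 (-0.45, SE 0.09) and Ccne1 (-0.28, SE 0.04). The order depends on the scale: on the value table Ccne1 shifted by -1.44, the lowest of the 40 genes, and with the local background subtracted by 0.015.

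**Figure D4:**
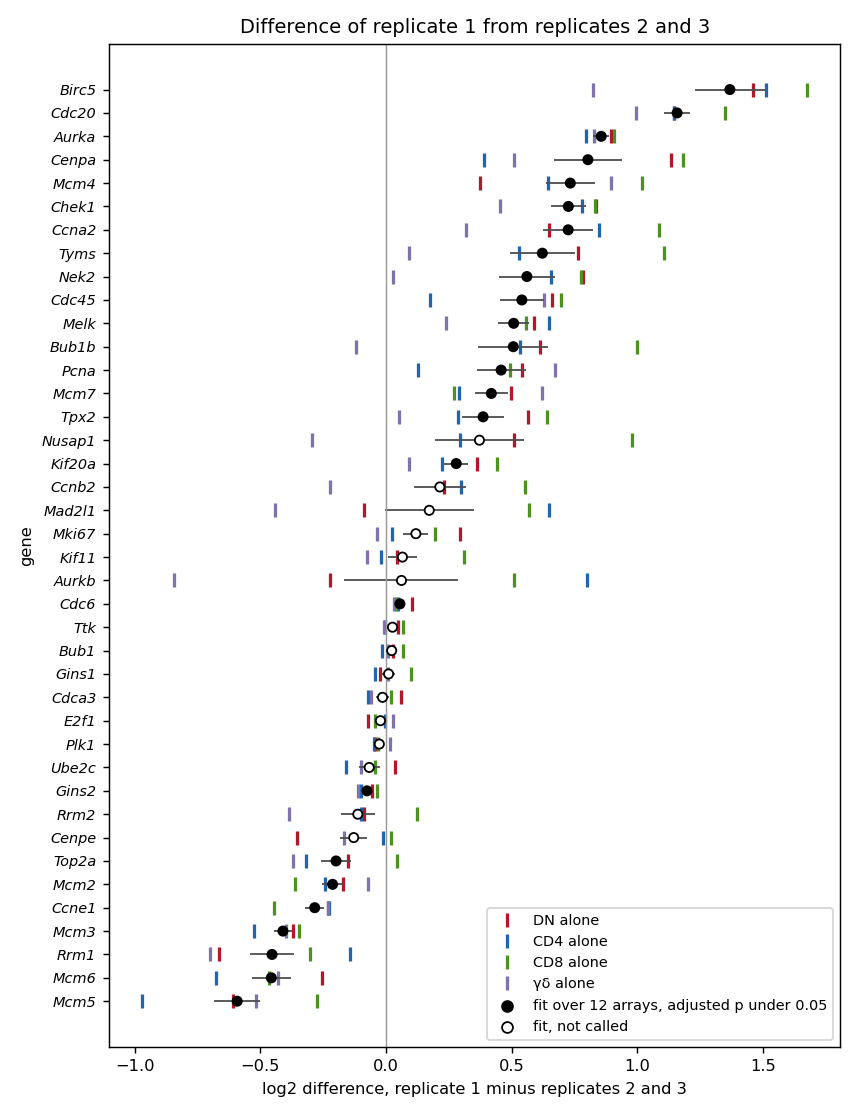
Replicate 1 minus replicates 2 and 3 in log2 units for the 40 cell cycle genes (rows), fitted over the 12 arrays with its standard error (circles, filled where the adjusted p is under 0.05) and within each fraction (coloured ticks). Birc5, at 1.37, and Cdc20, at 1.16, lie farthest right, Mcm5, at -0.59, farthest left, and the γδ tick is the leftmost for Nusap1, Aurkb, Mad2l1 and Bub1b.

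Across the fractions 16 genes shifted up in all 4, 7 shifted down in all 4, all of them S phase genes, and 17 were mixed. No such count over all genes is given here, and these counts include CD8 1 and γδ 1. The standard deviation of the shift over the 40 genes was 0.44 to 0.54 in the 4 fractions, against 0.09 to 0.14 for replicate 2 minus replicate 3. Over all genes tested it was 0.36 to 0.52, against 0.08 to 0.11, and in γδ the value over all genes, 0.51, was above that of the 40 genes. The median shift of the mitosis genes was 0.30 in DN, 0.29 in CD4, 0.55 in CD8 and -0.0067 in γδ, and the values for CD8 and γδ include the libraries that went against their labels. An interaction term called the shift different between DN and CD4 for 6 of 40 genes, against 11% of all genes. Among the wider lists, 25 of 56 mitotic machinery genes were higher in replicate 1 and 6 lower, and 15 of 41 replication genes were higher and 8 lower, against 21.9% of all genes higher and 18.9% lower. Of 12 G1 genes, 3 were higher and 5 lower, with Cdk4, the kinase of early G1, at -1.26 (SE 0.11), and of 19 inhibitor genes 5 were higher and 6 lower, with Cdkn2d at -1.17 (SE 0.12).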

How the data were processed

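RNA of 12 sorted samples was read on 12 one-colour arrays at 635 nm. The deposited scanner files give the intensity of each spot and of its surroundings at 3 gains, per the file headers, and a deposited table holds the authors' processed signal per probe, with column medians of 24.9 to 25. Of 27456 spots, controls and empty spots were left out, and 20690 of 23473 probes had 1 gene symbol in the platform's probe table. Spot medians were corrected with normexp (offset 50, local background not subtracted, since it correlated with the spot at 0.894 to 0.956), quantile normalised and tested in limma 3.58.1 (R 4.3.3) for 16942 genes, with Benjamini-Hochberg adjustment and a threshold of 0.05. Sequence windows were read in Python 3.11.15. The number of arrays limits the precision. Genes named with array values or their ranges included the fixed markers, those with the largest shifts and the brightest of each role. They also included the genes called without a block after CD8 1 and γδ 1 were left out. Kif20a, Tpx2, Nek2 and Melk, called in the blocked fit, are given without array values. The members and lists were chosen with earlier results of these data known. Same-numbered arrays deviated together in 18 of 18 pairs (r 0.100 to 0.735). Within replicates 2 and 3 the 12 pairs of equal number had a median r of 0.553 and the 12 of unequal number 0.527. These correlations therefore cannot separate pairing by replicate number from the shared array series. Fits without a block leave this shared deviation in the spread.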

Additional observations from a re-analysis of the deposited data

Results flagged for a closer look

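The shift of replicate 1 against replicates 2 and 3 differed between DN and CD4 for 6 of the 40 genes by an interaction term in limma, beside 11% of all genes. Aurkb shifted by -0.22 in DN and 0.80 in CD4, a difference of -1.02 (SE 0.15, adjusted p = 0.0134). Tpx2 shifted by 0.56 in DN and 0.29 in CD4, a difference of 0.28 (SE 0.05, adjusted p = 0.0169). Cenpe shifted by -0.35 in DN and -0.01 in CD4, a difference of -0.34 (SE 0.06, adjusted p = 0.0176). Rrm1 shifted by -0.67 in DN and -0.14 in CD4, a difference of -0.52 (SE 0.10, adjusted p = 0.0285). Mki67 shifted by 0.30 in DN and 0.02 in CD4, a difference of 0.27 (SE 0.06, adjusted p = 0.0394). Mcm5 shifted by -0.61 in DN and -0.97 in CD4, a difference of 0.36 (SE 0.08, adjusted p = 0.0463). Replicate 1 has 1 array in each fraction, so the error rests on the spread of replicates 2 and 3. On the value table and with the local background subtracted, 0 of the 6 kept the call.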

How the results depend on the processing

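As labelled, 0 of the 40 genes were called in each of the 6 comparisons between fractions and in the F test, also with median scaling, the offset of 16, the value table and the local background subtracted. The order below is DN minus CD4, DN minus CD8, DN minus γδ, CD4 minus CD8, CD4 minus γδ, CD8 minus γδ and the F test. Without CD8 1 and γδ 1 the counts were 0, 3, 0, 1, 1, 1 and 3. The array series as a block gave 1 for DN minus CD4 and 3 for CD4 minus γδ, and, when CD8 1 and γδ 1 were also left out, 6, 16, 2, 15, 10, 12 and 17. The replicate block gave 1 for CD4 minus γδ (Mcm6, 0.48, adjusted p = 0.0287) and 0 elsewhere, and without both libraries the replicate block gave 6, 16, 2, 15, 10, 11 and 14. Replicates 2 and 3 alone gave 15, 21, 3, 19, 14, 15 and 25 of the 40 genes. Of all 16942 genes that fit called 4805, 5517, 2052, 3981, 5125, 4636 and 7103. No share of all genes is given here for the replicate block without both libraries or the blocked value table. Chosen after seeing the data, the value table with the series block and without both libraries gave 3 for DN minus CD4, 17 for DN minus CD8, 14 for CD4 minus CD8, 6 for CD4 minus γδ, 12 for CD8 minus γδ and 16 in the F test, and local background subtraction in the same fit gave 0 in all 7. Leaving out 1 array gave 0 calls in all comparisons except 2 for DN minus CD8 without CD8 replicate 1, and 1 in the F test without γδ replicate 1. The array series shift, 25 calls, ranged from 22 to 27 with 1 array left out and fell to 1 with the local background subtracted. Its difference between DN and CD4, 6 calls, ranged from 1 (without DN replicate 3) to 6, and gave 1 with median scaling, 0 on the value table and 0 with the local background subtracted. The sign turned with the local background subtracted for DN minus CD8 of Cdc20 (-0.28), Top2a (-0.023) and Ccne1 (0.038), DN minus γδ of Cdc20 (-0.047), CD4 minus CD8 of Aurka (-0.17), Top2a (-0.0017) and Ccne1 (0.0058), CD4 minus γδ of Mcm2 (-0.040), CD8 minus γδ of Chek1 (0.064) and Kif11 (0.0030), and the shift of Cdc45 (-0.024) and Ccne1 (0.015). With the series block and without both libraries it turned under that subtraction for DN minus CD8 of Cdc20 (-0.023), Top2a (-0.015) and Ccne1 (0.045), DN minus γδ of Cdc20 (-0.072), CD4 minus CD8 of Birc5 (-0.12), Nusap1 (-0.0028), Aurka (-0.20) and Ccne1 (0.012), and CD4 minus γδ of Mcm2 (-0.056). With 1 array left out, values on both sides of 0 were found for Cdc20 in DN minus CD8 (-0.14 to 0.69), DN minus γδ (-0.080 to 0.63), CD4 minus CD8 (-0.17 to 0.66) and CD4 minus γδ (-0.11 to 0.60), for Aurka in CD4 minus CD8 (-0.083 to 0.48), and in CD8 minus γδ for Ccna2 (-0.43 to 0.12) and Kif11 (-0.15 to 0.0060). None of the turned values was called, and the cause was not tested.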
